A study of Mus musculus with 4 samples.

Results

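Keratins are the intermediate filament proteins of epithelial cells. A filament forms only from a type I keratin paired with a type II keratin, so the genes are usually read as pairs: *Krt5* with *Krt14* in basal cells, *Krt1* with *Krt10* in the suprabasal layers, *Krt8* with *Krt18* in simple epithelia. In the hair follicle nearly every layer has keratins of its own, which is why the family is used to tell bulge, companion layer, inner root sheath, hair shaft and sebaceous cells from one another. The members described here are the genes whose name is Krt and a number and whose mean normalized count was above 0, which were 40 of 48 such genes and 40 of the 24421 genes listed. *Krt34*, *Krt40*, *Krt72*, *Krt76*, *Krt81*, *Krt82*, *Krt85* and *Krt86* were listed at 0. Names with a letter after the number fall outside that pattern, and of these *Krt6a*, *Krt6b* and *Krt33a* were above 0 and *Krt33b* was at 0. *Krt6a* is described beside the members because the companion layer group names it. With either spelling, 43 of 52 keratin genes were above 0.

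The RNA came from bulge hair follicle stem cells (HF-SCs) of mouse back skin, sorted as live cells with high H2BGFP, high α6 integrin and high CD34 and without Sca1, at postnatal day 44 in mice labelled C57BL/6. There were 2 control libraries and 2 libraries from mice with inducible *miR-205*, given doxycycline chow from day 42 for 2 d. All mice carried the K14-H2BGFP allele. The inducible mice also carried pTRE2-miR-205, a transgene made in FVB mice, and *Krt14*-rtTA, so that both the reporter and the activator were driven by the promoter of a keratin described here. The labels call the controls untreated, whereas the protocol text feeds doxycycline to both kinds of mice.

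The deposited table gives, for each gene, the authors' mean normalized count over all 4 libraries, and no column for a single library. Induced and control mice were therefore not compared here. The mean is printed with 15 digits and is the average of 4 whole read counts, each divided by its library's size factor. That fixes the 4 read counts of a gene with a mean up to about 1000. Reads were recovered in this way for 29 of the 40 members. The libraries so separated carry no label. They are numbered 1 to 4 by size factor (1.24, 1.18, 0.966 and 0.716) and were put in no group, so a difference between them may be one of treatment, of animal or of library preparation, and these cannot be told apart.

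Genes of other cell types differed between the libraries. In library 3 the 5 melanocyte genes summed to 2118 normalized reads, against 906, 757 and 367 in libraries 1, 2 and 4. The 3 suprabasal marker genes with recovered reads (*Lor*, *Ivl* and *Krtdap*) summed to 2047 in library 3 and to 999, 1131 and 690 in the other libraries. Library 4 had the lowest sum of both lists. The sum of the 4 myeloid genes with recovered reads was highest in library 2, with 590, 1138, 970 and 565 in libraries 1 to 4. *Lyz2* gave the largest part of the sum in library 2, with 769 normalized reads. *Cd207* went the other way, with 256, 189, 324 and 205 normalized reads in libraries 1 to 4. The genes of the sort and of the bulge were abundant as pooled means, with *Cd34* at 14575, *Itga6* at 12910, *Postn* at 59079 and *Lhx2* at 3192, and *Ly6a*, which encodes the Sca1 antigen sorted against, had a mean of 136. Fibroblast collagen genes were present as well, with a mean of 5186 for *Col1a1*, while the fibroblast genes *Lum* and *Pdgfra* had means of 168 and 39.5. *Lum* and *Pdgfra* summed to 218, 183, 279 and 148 normalized reads in libraries 1 to 4. Of the myeloid genes, *Cd74* had a mean of 2744, and *Lyz2*, *Cd207*, *Ptprc* and *Itgam* had means of 449, 243, 87.6 and 35.6. Merkel cell genes were at or near 0, with *Atoh1* at 0 and *Sox2* at 1.33. The part of other cell types in the keratin values was not tested.

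**Figure D1:**
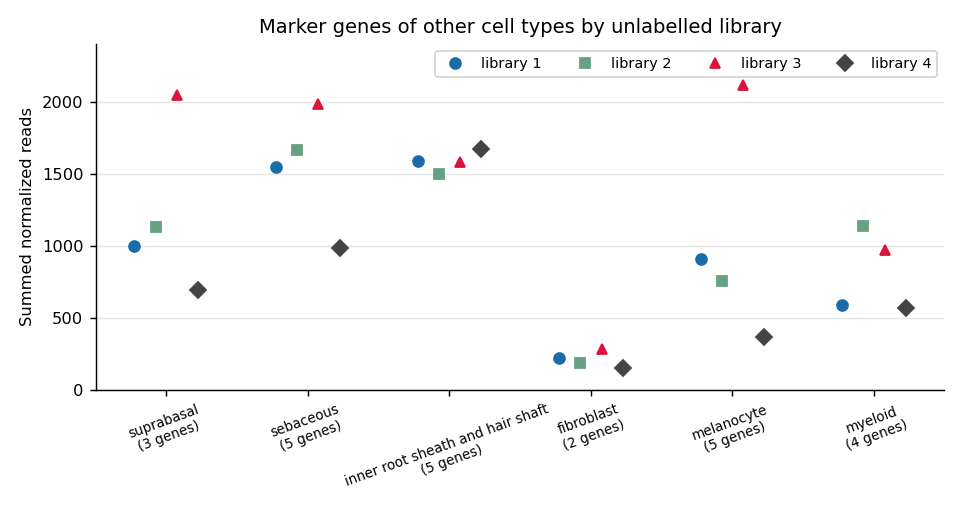
Summed normalized reads (linear vertical axis, from 0) of marker genes of 6 other cell types in each of the 4 unlabelled libraries, over the genes of each list whose reads could be recovered. Library 3 (red triangles) holds the highest melanocyte sum, 2118, and the highest suprabasal sum, 2047.

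Keratin RNA made up 3.41% of the summed mean of all genes, and most of it came from very few genes. *Krt5*, *Krt14* and *Krt15* together held 91.3% of the sum over the 40 members, and these and *Krt6a* held 92.4% of the sum over both spellings. Below them the family was spread over a wide range. Of the 40 members, 11 had a mean over 1000, which is 27.5% of them against 14.4% of all genes above 0, and 14 had a mean up to 10. The median mean of the members was 19.9 and that of all genes above 0 was 117, so the larger share of keratins over 1000 stood beside a lower median.

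**Figure D2:**
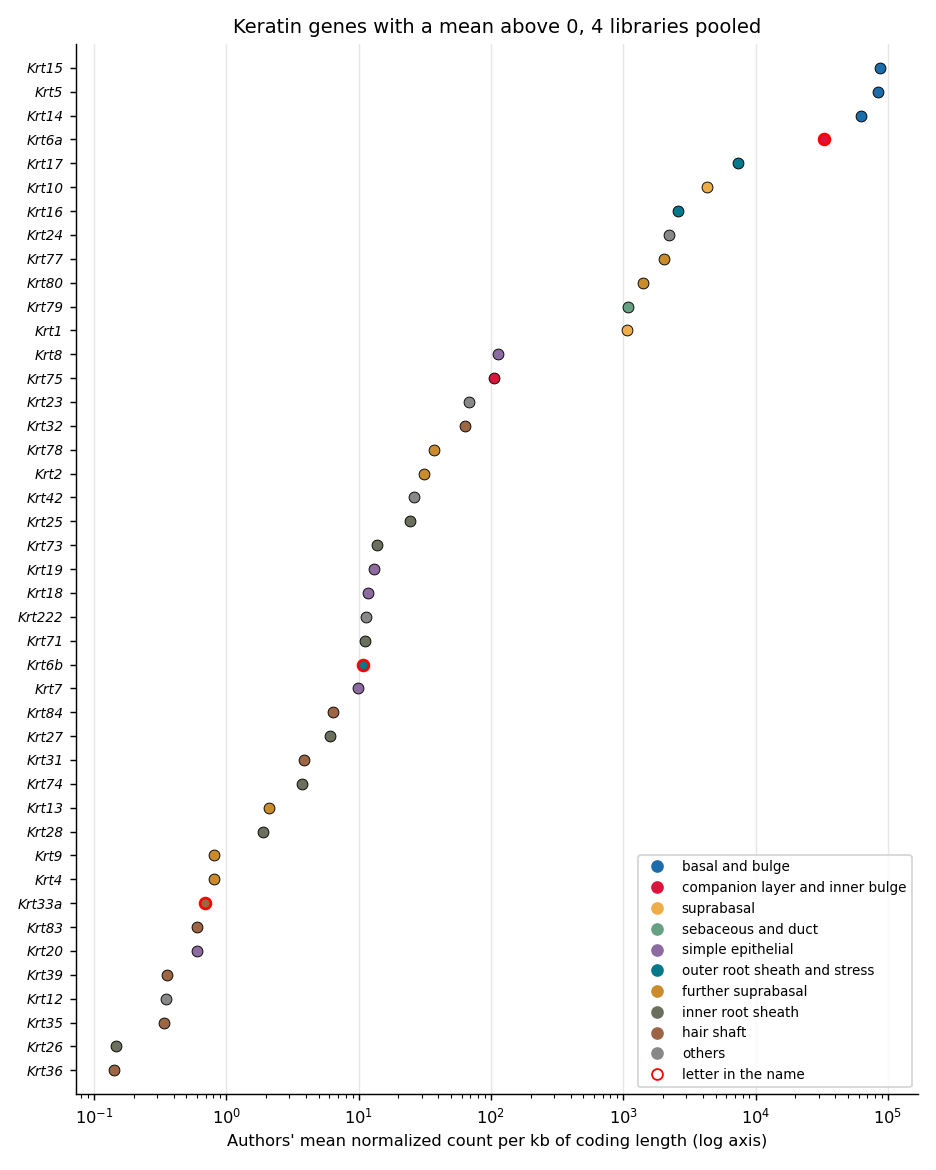
Authors' mean normalized count per kb of coding length (log horizontal axis) of the 43 keratin genes of either spelling above 0, ordered by level, 1 point a gene, with no error because the mean pools 4 libraries. Colors give the layer lists, and red rims mark names with a letter. *Krt15*, *Krt5* and *Krt14* stand at the right end between 62523 and 87442, and a gap separates *Krt1* at 1062 from *Krt8* at 113.

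Basal and bulge keratins led the family. *Krt5*, the type II keratin of basal cells, had a mean of 146090. *Krt15*, a type I keratin used as a marker of bulge stem cells, had a mean of 119883, and *Krt14*, the basal type I partner of *Krt5*, one of 90971. Ratios between single genes are given here per kb of coding length, since a long transcript gives more reads than a short one. Coding length leaves out the untranslated regions, so ratios per kb of transcript can differ. Per kb of transcript *Krt6a* was at 24339 and *Krt75* at 53.7, against 33037 and 106 per kb of coding length. The shares, counts and medians over the family given above are those of the mean itself. Per kb of coding length the order was *Krt15* with 87442, *Krt5* with 83816 and *Krt14* with 62523, which places all 3 above the 99.9th percentile of genes. The level of *Krt15* was 1.04 times that of *Krt5* and 1.40 times that of *Krt14*, and the order of *Krt5* and *Krt15* turns over without the division by length. *Krt5* was at 1.34 times *Krt14* per kb of coding length. At these means the reads of the single libraries could not be recovered, so the spread behind these ratios is not known, and the order of the 3 genes is a description of the pooled mean.

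The companion layer and inner bulge group split widely. *Krt6a*, a type II keratin of the companion layer and of the inner bulge cells that lie next to the club hair, had a mean of 54908, and its level per kb, 33037, was below that of *Krt14* by a factor of 1.89. *Krt75*, a type II keratin of the companion layer, had a mean of 175 and a level per kb of 106, so that *Krt6a* stood 312 times above it. *Krt75* had 356, 126, 157 and 103 reads in libraries 1 to 4, which is 288, 107, 162 and 144 normalized reads. Library 1 was above the other 3, and its exact Poisson 95% interval for counting error, 259 to 319, did not reach the highest of the others, 138 to 190. The ratio of the highest to the lowest library was 2.69. In bulk RNA, fewer cells of a type and less RNA per cell cannot be told apart.

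*Krt6a* and *Krt6b* have transcripts that are alike in part. Of all stretches of 150 bases of *Krt6a*, the length of 1 read, 18.7% also occur in transcripts of other genes, chiefly *Krt6b*. Of its stretches of 50 bases 49.0% do. Reads from such stretches may be split or dropped by the counting. *Krt6b*, the neighbouring type II gene of stressed and suprabasal epithelium, had a mean of 17.9, with 32.3, 8.48, 11.4 and 19.5 normalized reads in libraries 1 to 4. The level of *Krt6a* per kb was 3066 times that of *Krt6b*. For *Krt14*, *Krt16* and *Krt17*, which also resemble each other, no stretch of 150 bases was shared, and 14.4%, 11.9% and 3.99% of stretches of 50 bases were.

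*Krt16* and *Krt17* are type I partners of the *Krt6* genes in the outer root sheath and in stressed epidermis. *Krt17* had a mean of 9585 and a level per kb of 7362, the fifth of the family, and *Krt16* had a mean of 3653 and a level per kb of 2585. Per kb of coding length, *Krt6a* was at 4.49 times *Krt17* and at 12.8 times *Krt16*. All of these lay below *Krt14*, whose level per kb was 8.49 times that of *Krt17* and 24.2 times that of *Krt16*.

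The suprabasal pair was present at a small part of the basal level. *Krt10*, the type I keratin of differentiating epidermal cells, had a mean of 7246 and a level per kb of 4298, and *Krt1*, its type II partner, had a mean of 2033 and a level per kb of 1062. *Krt1* was thus at 0.247 times *Krt10*, whereas *Krt5* was above its partner. Per kb, *Krt5* was at 78.9 times *Krt1* and *Krt14* at 14.5 times *Krt10*. *Krt77*, another type II keratin of suprabasal cells, had a level per kb of 2047, which was 1.93 times that of *Krt1*, and *Krt80*, a type II keratin of differentiating epithelia, had one of 1409. Reads of these genes could not be recovered by library. The suprabasal marker *Sbsn* had a mean of 10749, *Krtdap* one of 497 and *Lor*, the cornified envelope protein loricrin, one of 604.

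Less abundant keratins of the suprabasal layers could be read by library. *Krt78*, a type II keratin of differentiating epidermis, had a mean of 118 and 99.5, 107, 185 and 81.0 normalized reads in libraries 1 to 4. Library 3 was the highest, with an interval of 159 to 214 that lay above those of the others. *Krt2*, a keratin of the uppermost living layers, had a mean of 66.3 and 80.1, 61.1, 84.9 and 39.1 normalized reads. Library 4 was the lowest for *Krt2*, and its interval of 26.0 to 56.5 overlapped that of library 2, 47.8 to 76.9, but not those of libraries 1 and 3. In the same libraries *Lor* was at 422, 623, 1183 and 187, *Ivl*, the involucrin gene, at 116, 114, 154 and 79.6, and *Krtdap* at 461, 394, 710 and 423. Library 3 was thus the highest for *Krt78* and for all 3 of these markers, while the intervals of libraries 1, 2 and 4 overlapped for *Krt78* and the markers did not share 1 order among them. *Krt13* and *Krt4*, keratins of the inner epithelia of mouth and esophagus, had means of 2.76 and 1.27, *Krt9*, a keratin of palm and sole skin, one of 1.81, and *Krt76* was at 0.

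*Krt79*, which marks cells of the infundibulum and of the sebaceous duct, had a mean of 1735 and a level per kb of 1087, close to that of *Krt1* (ratio 1.02). Its reads could not be recovered by library. Of the 6 sebaceous markers all were above 0, from *Pparg* with a mean of 22.0 to *Scd1* with one of 3085. The 5 with recovered reads summed to 1545, 1666, 1984 and 980 in libraries 1 to 4. Most of that sum came from *Plin2* and *Mgst1*. *Plin2* was highest in library 3 (1406), *Mgst1* in library 1 (605) and *Awat1* in library 2 (64.5), so these markers did not share 1 order of libraries.

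The simple epithelial keratins were low except for *Krt8*. *Krt8* had a mean of 166 and 127, 171, 164 and 202 normalized reads in libraries 1 to 4, with library 1 lowest, and a ratio of highest to lowest of 1.59. The interval of library 1, 108 to 148, overlapped those of libraries 2 and 3 but not that of library 4, 171 to 238. *Krt18*, the type I partner of *Krt8*, had only 7, 9, 29 and 12 reads, which is 5.66, 7.63, 30.0 and 16.8 normalized reads. Library 3 was the highest for *Krt18*, and its interval of 20.1 to 43.1 overlapped that of library 4, 8.66 to 29.3, but not those of libraries 1 and 2. Per kb of coding length *Krt8* was at 9.54 times *Krt18*, and the ratio was 19.4, 19.3, 4.70 and 10.4 in libraries 1 to 4, so that *Krt8* was above *Krt18* in each of the 4. Without library 3 the ratio was 14.4. *Krt19*, a type I keratin of bulge cells and simple epithelia, had a mean of 16.0, with 10.5 to 22.8 normalized reads by library, and the level of its neighbour *Krt15* per kb was 6639 times as high. *Krt7* had a mean of 13.6. *Krt20*, a Merkel cell keratin, had 3 reads in all, 2 in library 2 and 1 in library 4.

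Further keratins with a mean over 50 belonged to none of these groups. *Krt24*, a type I keratin, had a mean of 3398 and a level per kb of 2208. *Krt23*, another type I keratin, had a mean of 87.1 and 87.3, 47.5, 168 and 46.1 normalized reads in libraries 1 to 4. Library 3 was the highest and its interval of 143 to 196 lay above that of library 1, 71.6 to 105, and the other 2 libraries lay below both values. The ratio of highest to lowest was 3.64 for *Krt23*, the widest among the 6 members with a mean between 50 and 200. *Krt32*, a type I keratin of the hair cuticle, had a mean of 86.1 and 104, 78.9, 81.8 and 79.6 normalized reads, the narrowest spread of these 6 with a ratio of 1.32.

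**Figure D3:**
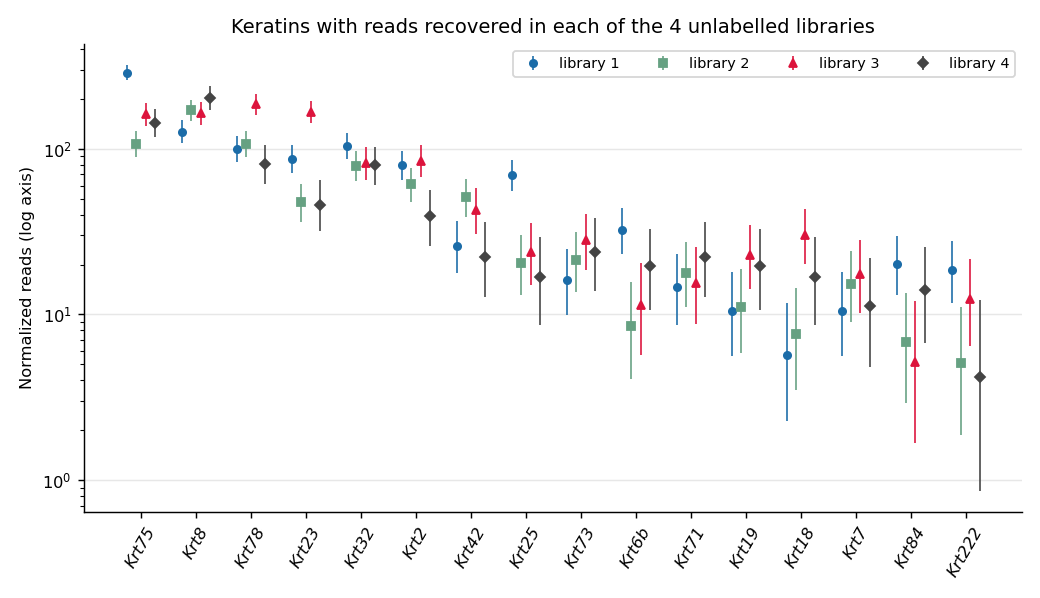
Normalized reads (log vertical axis) of the 16 keratins with recovered reads and a mean over 10, in each of the 4 unlabelled libraries. Bars are exact Poisson 95% intervals and cover counting error only. Library 1 is the highest for *Krt75* (288) and *Krt25* (69.5), and library 3 for *Krt78* (185), *Krt23* (168) and *Krt18* (30.0).

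Inner root sheath keratins were detected at low levels. Of the 8, 7 were above 0 and *Krt72* was at 0. *Krt25*, a type I keratin of this sheath, had a mean of 32.6 and 69.5, 20.4, 23.8 and 16.8 normalized reads in libraries 1 to 4. Library 1 was the highest, with an interval of 55.6 to 85.9 that lay above those of the others. *Krt71*, its type II partner, had a mean of 17.6 and 14.6, 17.8, 15.5 and 22.3 normalized reads. Library 1 was the lowest for *Krt71*, but its interval of 8.63 to 23.0 overlapped those of all the others. The ratio of *Krt71* to *Krt25* per kb was 0.458 in the pooled mean and 0.178, 0.745, 0.555 and 1.14 in the 4 libraries, and without library 1 it was 0.778. *Krt73*, another type II keratin of the sheath, had a mean of 22.3. *Krt27* and *Krt28* had means of 8.19 and 2.61. No member of the sheath list passed a mean of 50, while *Gata3*, a transcription factor of the inner root sheath, had a mean of 926, and *Tchh*, the trichohyalin gene of the same sheath, one of 139. The 5 inner root sheath and hair shaft markers summed to 1585, 1495, 1579 and 1670 in libraries 1 to 4. Most of that sum came from *Gata3* and *Hoxc13*, whereas *Tchh* was at 158, 146, 167 and 85.2 and *Padi3* at 0.809, 1.70, 4.14 and 14.0, so the members of the list did not share 1 order of libraries.

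Hair shaft keratins were mostly at 0 or at a few reads. Of the 15 listed, 7 were at 0, and only *Krt32* had a mean over 50. *Krt84* had a mean of 11.5 and *Krt31*, a keratin of the hair cortex, one of 4.82 (means not divided by length). *Krt84* had 20.2, 6.79, 5.17 and 14.0 normalized reads in libraries 1 to 4 and *Krt31* had 8.90, 1.70, 3.10 and 5.58. Library 1 was the highest for both. Its interval overlapped those of libraries 2, 3 and 4 for *Krt31* and those of libraries 2 and 4 for *Krt84*. The lowest levels in the family, per kb as well as for the mean itself, were those of *Krt26* and *Krt36*, each with 1 read, in library 1. A gene with 0 reads in all 4 libraries can have a mean of up to 0.732 at this depth (3 counts), and 5 members lay at or under that value, so these cannot be told apart from genes at 0. Of 53 genes of keratin-associated proteins, the matrix proteins of the hair shaft, 48 were at 0. The highest was *Krtap17-1*, with a mean of 143 and 129, 172, 156 and 114 normalized reads in libraries 1 to 4.

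Among the 16 keratins with recovered reads and a mean over 10, the order of levels per kb was not resolved between most neighbours. For 14 of the 15 pairs of neighbours in that order the ranges over the 4 libraries overlapped. The exception was *Krt32*, between 57.9 and 76.6 per kb, and *Krt78*, between 25.2 and 57.8. Their ranges nearly touched, at 57.9 and 57.8, and they leave out counting error.

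The spread from library to library was set beside that of all genes of like level, as a description. Of the 15 members with a mean from 10 to 200, 10 had a highest library over 2 times the lowest, which is 66.7% against 31.5% of the 5628 genes of that range with reads in every library, and the median ratio was 2.28 against 1.62. The members were lower in that range than other genes, with a median mean of 32.6 against 63.4, and low counts spread more. From 10 to 50 the medians were nearer, 2.28 for 9 members and 2.13 for all genes. From 50 to 200 they were 2.23 for 6 members and 1.45 for all genes, with 4 of 6 members (66.7%) and 13.9% of all genes over 2. Without library 1, 2, 3 or 4 in turn, 3, 4, 2 and 2 of these 6 were over 2 (50%, 66.7%, 33.3% and 33.3%). The shares of all genes were then 9.64%, 9.55%, 9.28% and 8.97%. The highest library was library 3 for 7 of the 15 members and library 1 for 5, and among all genes of the range these shares were 31.4% and 17.0%.

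The keratin genes lie in 2 clusters, type I genes on chromosome 11 (27 of the listed genes, GRCm38.p6 chr11:99232761-100269951, 1037 kb) and type II genes with the type I gene *Krt18* on chromosome 15 (24 genes, chr15:101348315-102032026, 684 kb). Genes next to each other often differed by orders of magnitude. Of 35 pairs of neighbours both above 0, 27 held no gene at or under the mean of 0.732 that 0 reads allow. In these 27 the higher level per kb was a median of 29.5 times the lower, and in 11 pairs over 100 times. *Krt14* (chr11:100203162-100207510) lies next to *Krt9*, at a level 77237 times as high, and *Krt15* (chr11:100131759-100135949) lies between *Krt13* and *Krt19*, at 41623 and 6639 times their levels. Since *Krt9* had only 8 reads in all and *Krt13* only 11, the factors against these genes carry a wide counting error. *Krt5* (chr15:101707069-101712905) and *Krt6a* (chr15:101689928-101694305) are neighbours that differed by a factor of 2.54, and *Krt71*, on the other side of *Krt5*, was 7519 times lower. Each cluster held 6 genes with a mean over 1000.

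**Figure D4:**
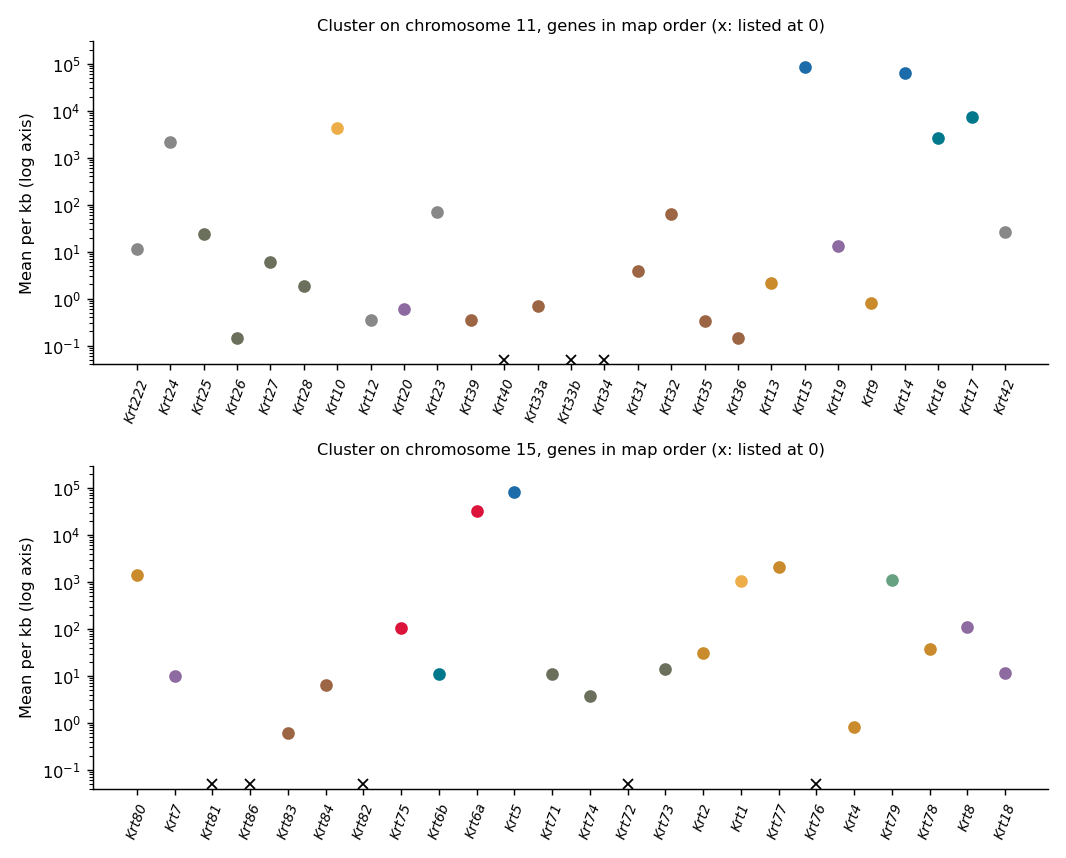
Authors' mean normalized count per kb of coding length (log vertical axis) of the keratin genes of each cluster in map order, 1 point a gene, colored by layer list as in the plot of all keratin levels, with a cross at the bottom for genes listed at 0 (these have no place on the log axis). Genes over 1000 per kb stand beside genes under 10, as for *Krt14* (62523) and *Krt9* (0.809).

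The 25 type I genes above 0, of either spelling, had a summed mean of 235042 and the 18 type II genes one of 210815. The ratio of type II to type I was 0.897 for the mean itself and 0.737 per kb of coding length.

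*miR-205* pairs with its targets through its seed, bases 2 to 8, and the mature sequence and the keratin sequences that hold the complement of the seed are shown because *miR-205* is what the mice were made to express. The mature miR-205-5p of RefSeq (GRCm38.p6 chr1:193507503-193507524, minus strand) is given with its seed in capitals, followed by 29 bases of the coding sequence of 5 keratins with the 7 bases ATGAAGG that pair with the seed in capitals.
miR-205-5p: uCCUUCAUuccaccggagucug
Krt14: cctccagctccATGAAGGgctcttgtggt
Krt16: cctccagctccATGAAGGgctcctgtggc
Krt15: atgaggaggagATGAAGGaattcagcagt
Krt13: acgaagaggagATGAAGGaattcagcaac
Krt80: aaaaggaggagATGAAGGctctcaatgat

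These 7 bases occurred in none of the 3' untranslated regions of the 43 keratins above 0, and in those of 1353 of 14132 genes (9.57%). Keratin 3' untranslated regions were short, with a median of 315 bases against 865 for all genes, and 33 of 43 were under 500 bases. Among all genes with one under 500 bases, 1.62% held the match. In the coding sequence the match occurred in 9 keratins, *Krt13*, *Krt14*, *Krt15*, *Krt16*, *Krt20*, *Krt25*, *Krt78*, *Krt80* and *Krt83*, which is 20.9% of the 43. Among all 14641 genes above 0 with a coding sequence 21.9% held it, so the share of keratins was near that of all genes. In *Krt14* and *Krt16* it starts at base 40 of the coding sequence, and in *Krt13* and *Krt15* at bases 715 and 721. The windows of *Krt14* and *Krt16*, and those of *Krt13* and *Krt15*, are alike around the match. A match is a run of letters and not a site of binding, and no keratin value here bears on it, since the libraries carry no label.

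In the promoters, read from 250 bases before to 50 after the start in RefSeq (GRCm38.p6), 35 of the 52 keratin genes were found. The letters TATAAA, searched on both strands, stood in 19 of these 35 (54.3%) and in 15.7% of all 27025 genes. They stood in 3 of the 12 keratins found with a mean over 50 and in 16 of the 23 found with a lower mean or at 0. Of the 18 keratins with a mean over 50, the promoters of 6 (*Krt1*, *Krt15*, *Krt16*, *Krt17*, *Krt6a* and *Krt80*) were not analysed here, so the leading keratins are covered only in part. Of the 12 found, the windows of *Krt2*, *Krt10*, *Krt14* and *Krt78* lay wholly inside the gene. For *Krt14* the window was chr11:100205981-100206280, in a gene that spans chr11:100203162-100207510. The outer ends of these genes were therefore not searched. The AP-1 motif TGANTCA, which reads as itself on the other strand, stood in 1 of the 35 (2.86%) and in 8.97% of all genes. A gene with several starts counted once if any of them held the letters, and a match is a description of the sequence only.

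The RNAs of proteins that bind or anchor keratin filaments were measured in the same table. All 12 of the listed partner genes were above 0, and 11 had a mean over 50, as did 60.7% of all genes above 0. *Dsp*, which encodes desmoplakin, the link of keratin to desmosomes, had a mean of 86652, and *Jup*, plakoglobin, one of 29154. *Dst*, whose epidermal form links keratin to hemidesmosomes, had a mean of 59882, and *Plec*, plectin, one of 14153. The plakophilins *Pkp1* and *Pkp3* of epidermal desmosomes had means of 8359 and 8082, and *Pkp2* had one of 10.1, with 8.09, 9.33, 17.6 and 5.58 normalized reads in libraries 1 to 4.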

How the data were processed

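RNA was sequenced from sorted HF-SCs in 2 control and 2 *miR-205*-inducible libraries (150-nt paired ends, NEBNext Ultra Directional libraries). Per the submitters' processing notes and the methods, the authors aligned reads with HISAT2 2.1.0, used SAMtools 1.3.1, counted with HTSeq and compared groups with DESeq2 (mm10; for the last pair no version, and for the counting no annotation, is given in the sources used here). The deposited table is that comparison. Its mean normalized count, a signal averaged by the authors over 4 libraries after division by size factors, is the only value used. The fold changes, their errors, statistics and p-values in the table are the authors' own comparison and were not used. Columns of per-sample values numbered 0.

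Whole reads per library were recovered by an integer search for 4 counts whose weighted sum equals the printed mean within 1 unit of the 15th digit. All genes with a mean up to 1000 had exactly 1 solution, as did 15 of 859 genes from 1000 to 1500 (14606 genes in all, holding 20.6% of the summed mean). The other genes up to a mean of 2500 had several solutions, no search was made above 2500, and both were left out. The recovery was tested on simulated data. The recovered reads of libraries 1 to 4 summed to 3361548, 3183671, 2609273 and 1925207, and total depth is not known. Poisson intervals cover counting error only. The methods describe pairs with littermate controls, and the labels name no animal for a library.

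Coding and transcript lengths, untranslated regions and shared stretches came from the GENCODE vM1 transcript with the longest coding part (50 of 52 keratin genes; 14641 genes above 0), and places, promoters and miR-205 from RefSeq on GRCm38.p6 (51 of 52 matched by symbol). *Krt74* is annotated there as a transcribed pseudogene, and the symbol *Krt83* is shared with a synonym of *Krt87*, so both are uncertain. Named were all keratins of the basal and bulge, companion, suprabasal and sebaceous groups, every other keratin with a mean over 50, the lowest, and examples of other fixed lists. *Krt87*, *Krt90* and the marker *Flg* were not analysed here. The members and lists were chosen with earlier results of these data known. No test was made. The alternatives were other name patterns, minimum means, length scales, backgrounds and tolerances, and each library left out. The work used Python 3.11.15, numpy 2.4.6, scipy 1.17.1 and matplotlib 3.10.9.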

Additional observations from a re-analysis of the deposited data

How the results depend on the processing

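No paired analysis was possible because the table holds no column of a single library and the recovered libraries carry no label, and for the same reason induced and control mice were not compared. The number of keratin genes above 0, 40, became 43 with letter names, 26 with a mean over 10 and 17 with a mean over 50. The share of *Krt5*, *Krt14* and *Krt15* in the keratin sum, 91.3%, was 91.2% per coding length and 80.1% with letter names, which add *Krt6a*. The median percentile of the members, 30.9 among all genes above 0, was 25.7 per coding length and 89.1 for the members over 50 among genes over 50. For the mean itself and per transcript length, *Krt5* over *Krt14* was 1.61 and 1.25, *Krt1* over *Krt10* 0.281 and 0.240, *Krt8* over *Krt18* 11.0 and 8.57, and *Krt71* over *Krt25* 0.538 and 0.490. With each library left out in turn, *Krt8* over *Krt18* ran from 8.12 to 14.4 (without library 3) and *Krt71* over *Krt25* from 0.359 to 0.778 (without library 1). Per kb of coding length the group medians were 83816 for basal and bulge (119883 for the mean itself), 16572 for companion layer and inner bulge (27542), 2680 for suprabasal (4640) and 1087 for sebaceous (1735). These groups hold 3, 2, 2 and 1 genes. The companion value is only the midpoint of *Krt6a* and *Krt75*, and neither gene lies near it. Leaving out libraries was not run for the other ratios, the share and the group medians, whose reads could not be recovered. A tolerance 10 times wider gave the same reads for all 29 members. The values per transcript length (the share and all 4 ratios), the range of means for the spread and its values without each library were chosen after seeing the data.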
